A study of Arabidopsis thaliana with 14 samples.

Results

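CAT1 (AT1G20630), CAT2 (AT4G35090) and CAT3 (AT1G20620) are the catalase genes of Arabidopsis thaliana, and these 3 of the 33602 genes counted were chosen by name. All 3 passed the filter on low counts that left 19666 genes for testing. RNA had been sequenced from whole rosettes of 14 pools of 5 plants each, 3 weeks old, to follow the transcription factor WRKY75 after induction with estradiol. The groups were wild-type Col-0 sprayed with water (3 libraries), Col-0 sprayed with 50 µM estradiol (3 libraries), and the independent WRKY75 overexpression lines N2102362 and N2102363 sprayed with 50 µM estradiol (4 libraries each). All sprays, water included, held 0.001% Silwet-L77, a wetting agent, and all rosettes were harvested 3 h later. Lines without estradiol were not analysed here, so a line and its induction cannot be told apart. The construct, its promoter and its place of insertion are not given in the sources used here.

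Catalases are haem enzymes of the peroxisome that split hydrogen peroxide into water and oxygen. In leaves much of this peroxide comes from glycolate oxidase, an enzyme of photorespiration, and CAT2 is known as the main catalase of photosynthetic leaves, with its transcript highest in the morning. CAT3 transcripts are known to peak in the evening and to mark vascular tissue and ageing leaves, while CAT1 is known for pollen, seeds and responses to abscisic acid. WRKY75 is known as a promoter of leaf senescence that represses CAT2, and WRKY53, a related senescence factor, is known to bind catalase promoters.

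CAT3 and CAT1 are tandem neighbours on the plus strand of chromosome 1, and CAT2 lies on the minus strand of chromosome 4. In the TAIR10 coordinates of the files, CAT3 spans 7143067 to 7146540 on chromosome 1, CAT1 spans 7146636 to 7149977, and 95 bp separate them. CAT2 spans 16700342 to 16703325 on chromosome 4. The coding sequences in RefSeq (TAIR10.1) are all 1479 bp long and encode 492 residues each. The first 5 coding exons have the same lengths in all 3 genes (15, 97, 278, 777 and 90 bp). Behind them, CAT2 has exons of 68, 94 and 60 coding bp, CAT1 has 68 and 154, and CAT3 has 162 and 60. CAT1 thus lacks the last intron of CAT2, and CAT3 lacks the one before it.

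**Figure D1:**
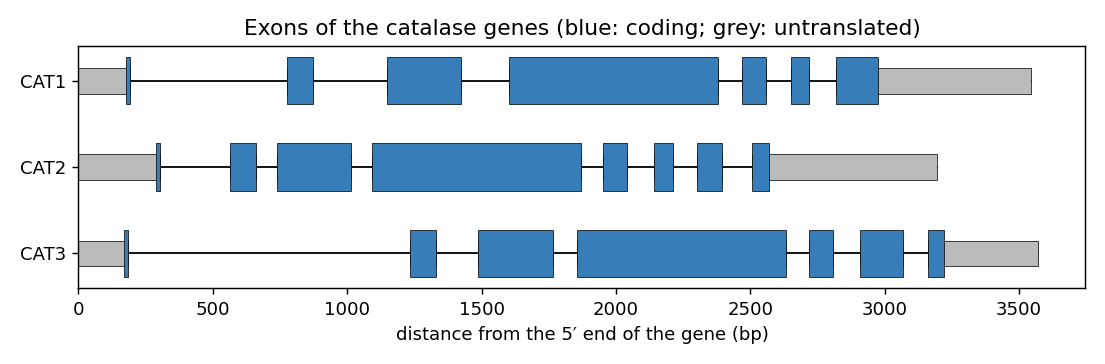
Exons of the first RefSeq transcript of each catalase gene, drawn to scale in bp from the start of the gene model, with coding parts as thick boxes. The first 5 coding exons match in length in the 3 genes, and the genes differ in how the end of the coding sequence is divided.

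The coding sequences were identical at 80.3% of positions between CAT1 and CAT2, 76.9% between CAT1 and CAT3 and 76.5% between CAT2 and CAT3. The third base of the codon held 222 of the 292 differences between CAT1 and CAT2. The longest identical stretches were 32, 29 and 30 bases for these pairs, and no pair shared a stretch of 50 bases, which bears on how far reads of 1 gene could be counted for another. The handling of reads with several matches is not given in the sources used here. Coding positions 1072 to 1161 are shown because they include the longest stretch shared by CAT1 and CAT3. Capitals mark the 18 positions at which the 3 genes are not all alike (5′ to 3′, RefSeq, TAIR10.1; CAT1 chr1:7148920-7149009, CAT2 chr4:16701641-16701730 minus strand, CAT3 chr1:7145510-7145599).
CAT1: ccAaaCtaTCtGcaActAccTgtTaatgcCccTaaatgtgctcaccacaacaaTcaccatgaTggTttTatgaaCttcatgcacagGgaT
CAT2: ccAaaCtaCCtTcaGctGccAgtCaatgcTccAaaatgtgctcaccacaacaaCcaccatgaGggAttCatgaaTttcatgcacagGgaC
CAT3: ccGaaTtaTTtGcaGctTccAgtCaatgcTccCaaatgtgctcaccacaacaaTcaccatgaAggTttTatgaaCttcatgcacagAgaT

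The bases before each annotated start are shown for the motifs they hold, because WRKY factors and clock factors bind short known motifs. Both strands were searched for the W-box core TTGAC, known to be bound by WRKY factors, the evening element AAAATATCT and the site AAAAATCT, known to be bound by CCA1 and its relatives, and the G-box CACGTG. Capitals mark the matches in the 300 bases before the RefSeq start, or in CAT1 the 95 bases after the end of CAT3 (5′ to 3′ on the strand of the gene; CAT1 chr1:7146541-7146635, CAT2 chr4:16703505-16703804 minus strand, CAT3 chr1:7142672-7142971, TAIR10.1).
CAT1: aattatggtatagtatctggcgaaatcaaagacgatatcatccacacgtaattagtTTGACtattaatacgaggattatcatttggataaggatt
CAT2: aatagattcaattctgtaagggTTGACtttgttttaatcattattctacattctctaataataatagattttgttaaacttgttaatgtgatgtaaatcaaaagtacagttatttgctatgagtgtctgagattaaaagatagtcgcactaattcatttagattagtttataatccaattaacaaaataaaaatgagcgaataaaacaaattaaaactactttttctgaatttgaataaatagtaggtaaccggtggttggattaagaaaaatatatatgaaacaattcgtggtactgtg
CAT3: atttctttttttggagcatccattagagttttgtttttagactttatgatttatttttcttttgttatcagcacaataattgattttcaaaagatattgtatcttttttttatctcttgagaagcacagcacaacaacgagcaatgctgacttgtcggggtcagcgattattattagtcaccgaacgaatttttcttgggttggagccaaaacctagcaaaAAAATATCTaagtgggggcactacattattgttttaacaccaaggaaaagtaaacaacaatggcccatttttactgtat

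CAT1 had a W-box core 39 bases before its start and CAT2 had a W-box core 278 bases before its start. CAT3 had an evening element 79 bases before its start and no W-box core in this window. Over 27443 promoters of 300 bases, 50.4% held the W-box core, 2.79% the evening element, 7.94% the CCA1 site and 7.09% the G-box, and the motifs shown did not overlap. Over 1000 bases CAT1 had 3 W-box cores, CAT2 had 2 and CAT3 had 1, in a background where 88.1% of promoters held at least 1. Of the CAT1 matches, those 363 and 573 bases before its start lie inside the CAT3 gene. CAT2 also had a G-box 773 bases before its start (14.8% of promoters). The gene models of the files start 179 bp (CAT2) and 95 bp (CAT3) downstream of the RefSeq starts. These matches describe letters and not bound sites.

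Total counts lay between 20456036 and 22605970 per library. WRKY75 was at 0.428 to 2.69 CPM (counts scaled to a common library size) in the 6 Col-0 libraries, 28.2 to 82.1 CPM in N2102362 and 76.8 to 167 CPM in N2102363. Between replicate 4 and replicates 1 to 3 of the lines, 1468 of 19666 genes differed at an adjusted p under 0.05 (edgeR's quasi-likelihood test, Benjamini-Hochberg adjustment), and Col-0 has no replicate 4. In N2102362, replicate 4 correlated less with replicates 1 to 3 (r of log2 CPM across genes 0.956 to 0.970) than these did among themselves (0.977 to 0.986). In N2102363 it did not stand apart in this way, at 0.976 to 0.983 against 0.978 to 0.988. The deposited names of these 2 libraries carried a date that no other name did, so whatever the date marks and replicate number 4 cannot be told apart. The 3 markers of leaf mesophyll summed to 9497 to 15273 CPM in Col-0 with water, 10174 to 14647 in Col-0 with estradiol, 12243 to 16422 in replicates 1 to 3 of the lines and 23205 to 26788 in replicate 4. The 4 floral markers summed to at most 4.11 CPM. Catalase fold changes between groups that used replicate 4 are given with and without it, and p-values measure the spread between these pools.

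CAT3 made up most of the catalase transcript in every library. By count, CAT3 ranked between 1 and 17 among all genes and was the most counted gene of all in 6 of 14 libraries, including all 3 of Col-0 with water. CAT2 ranked between 81 and 361, and CAT1 between 1047 and 2574. Per kilobase of transcript (RPKM), CAT3 gave 75.6% to 96.3% of the catalase sum, CAT2 2.69% to 22.8% and CAT1 0.773% to 2.31%. The level of CAT3 per kilobase was 3.32 to 35.8 times that of CAT2, and the level of CAT2 was 2.71 to 14.1 times that of CAT1. The order CAT3, CAT2, CAT1 held in all 14 libraries, and the spans of the 3 genes did not overlap.

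The catalases together took 0.988% ± 0.0692 (SD, n = 3) of all counts in Col-0 with water and 0.880% ± 0.194 (n = 3) in Col-0 with estradiol. They took 0.742% ± 0.194 (n = 4) in N2102362 and 0.612% ± 0.119 (n = 4) in N2102363. CAT3 set this order, since its own share was 0.921% ± 0.0843, 0.800% ± 0.199, 0.648% ± 0.217 and 0.513% ± 0.127 in the same groups. In a rosette, fewer cells of a type and less RNA per cell cannot be told apart.

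CAT3, the evening-phased catalase, was lower on average in each line than in Col-0, but with overlap. Its level was 9808, 9704 and 8079 CPM in Col-0 with water (mean 9197 ± 970, SD, n = 3) and 9828, 8570 and 5815 CPM in Col-0 with estradiol (8071 ± 2053). It was 6059, 8267, 7051 and 3952 CPM in replicates 1 to 4 of N2102362 (6332 ± 1826, n = 4). It was 5873, 6502, 4225 and 3998 CPM in N2102363 (5150 ± 1229, n = 4). Replicate 3 of Col-0 with estradiol lay below 2 libraries of N2102363, so these groups overlapped. All 4 libraries of N2102363 lay below all 3 of Col-0 with water, a pattern that 12.3% of genes tested shared in that direction.

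The fold change of CAT3 against Col-0 with estradiol did not pass the test in either line (edgeR's quasi-likelihood test, adjusted over 19666 genes). In N2102363 its log2 fold change was -0.65 ± 0.28 (SE; adjusted p = 0.443), with a 95% interval of -1.26 to -0.04. At least as large a change, in either direction, was seen in 6.01% of genes. In N2102362 the log2 fold change was -0.35 ± 0.28 (adjusted p = 0.852), and for both lines averaged it was -0.50 ± 0.25 (adjusted p = 0.528). Without replicate 4 these values became -0.55, -0.18 and -0.36 (adjusted p = 0.554, 1.00 and 0.816), closer to 0 in each case. Against the water libraries of Col-0 the log2 fold change was -0.84 in N2102363 (adjusted p = 0.121) and -0.54 in N2102362 (adjusted p = 0.477), or -0.75 and -0.38 without replicate 4 (adjusted p = 0.149 and 0.778). Estradiol itself, in Col-0, gave -0.19 ± 0.30 (adjusted p = 1.00), and the lines differed from each other by -0.30 ± 0.26 (N2102363 against N2102362, adjusted p = 1.00), or by -0.37 without replicate 4 (adjusted p = 0.908).

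CAT2, the photorespiratory catalase and the known target of WRKY75, had a mean above that of Col-0 with estradiol in both lines, which in N2102362 rested on replicate 4. Its level was 659, 325 and 703 CPM in Col-0 with water (562 ± 207, SD, n = 3) and 817, 544 and 718 CPM in Col-0 with estradiol (693 ± 138). It was 662, 812, 445 and 1428 CPM in replicates 1 to 4 of N2102362 (837 ± 422, n = 4). It was 831, 765, 730 and 1199 CPM in N2102363 (881 ± 216, n = 4). The highest values of both lines were those of replicate 4, and of the other 6 line libraries 4 lay within the span of Col-0 with estradiol, 1 above it and 1 below.

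The log2 fold change of CAT2 against Col-0 with estradiol was 0.27 ± 0.36 (SE; adjusted p = 0.888, edgeR) in N2102362 and 0.35 ± 0.36 (adjusted p = 0.685) in N2102363. The 95% intervals ran from -0.51 to 1.06 and from -0.44 to 1.13. In the mean of the lines it was 0.31 ± 0.33 (adjusted p = 0.710), with an interval of -0.39 to 1.01 that holds both a fall and a doubling. Without replicate 4 the value of N2102362 turned to -0.12, that of N2102363 dropped to 0.16 and the mean of the lines to 0.02 (adjusted p = 1.00, 0.873 and 0.992). Estradiol in Col-0 gave 0.30 ± 0.39 (adjusted p = 1.00), the same size as the line differences. Leaving out water replicate 2, the lowest library of CAT2, this became 0.03. Between the lines the log2 fold change was 0.07 ± 0.33 (adjusted p = 1.00), or 0.27 without replicate 4 (adjusted p = 0.908).

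CAT1, the least abundant catalase, had the smallest standard errors in the comparisons. Its level was 119, 111 and 102 CPM in Col-0 with water (111 ± 8.37, SD, n = 3) and 133, 91.5 and 157 CPM in Col-0 with estradiol (127 ± 33.04). It was 129, 77.7, 107 and 93.9 CPM in N2102362 (102 ± 21.7, n = 4) and 141, 138, 127 and 97.6 CPM in N2102363 (126 ± 19.8, n = 4). All 4 groups overlapped. The log2 fold change against Col-0 with estradiol was -0.32 ± 0.20 (SE; adjusted p = 0.852, edgeR) in N2102362 and -0.01 ± 0.20 (adjusted p = 0.984) in N2102363. It was 0.20 ± 0.21 for estradiol in Col-0 and 0.31 ± 0.18 between the lines (adjusted p = 1.00 for both). Without replicate 4 the values were -0.28 in N2102362, 0.09 in N2102363, where the sign turned, and 0.37 between the lines (adjusted p = 1.00, 0.900 and 0.908).

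**Figure D2:**
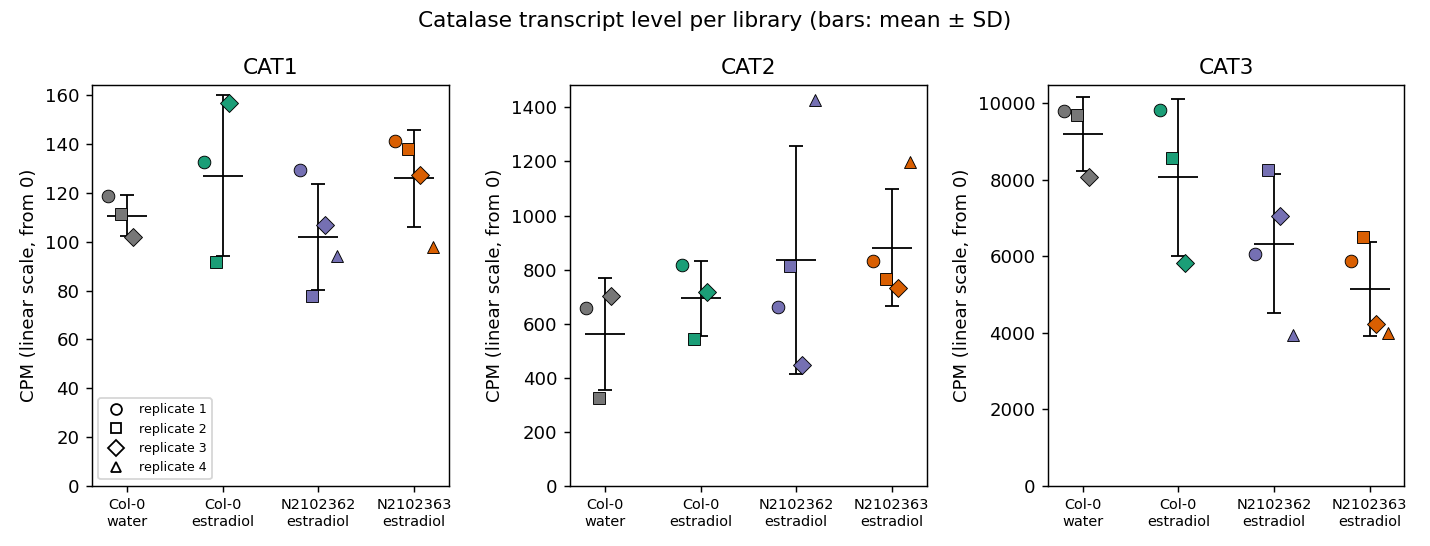
Level of CAT1, CAT2 and CAT3 in CPM (linear axes from 0) in each of the 14 libraries, by group, with symbols for replicate numbers and bars for mean ± SD. CAT2 is highest in replicate 4 of both lines (1428 and 1199 CPM) and CAT3 is lowest there (3952 and 3998 CPM).

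In count, 0 of 3 catalases passed the test in each comparison of groups, and 1 had an unadjusted p under 0.05 (CAT3 in N2102363, as did 11.2% of all genes there). DESeq2 also called 0 of 3 in these comparisons. Few genes passed at all: 0% for estradiol in Col-0 (0 genes, 310 or 1.58% with an unadjusted p under 0.05, and 0 with DESeq2), 0.0305% in N2102362, 0.0254% in N2102363, 0.0356% in the mean of the lines and 0.00508% between the lines. Not passing the test here does not show that a catalase stayed level, and the intervals give what the libraries allow.

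**Figure D3:**
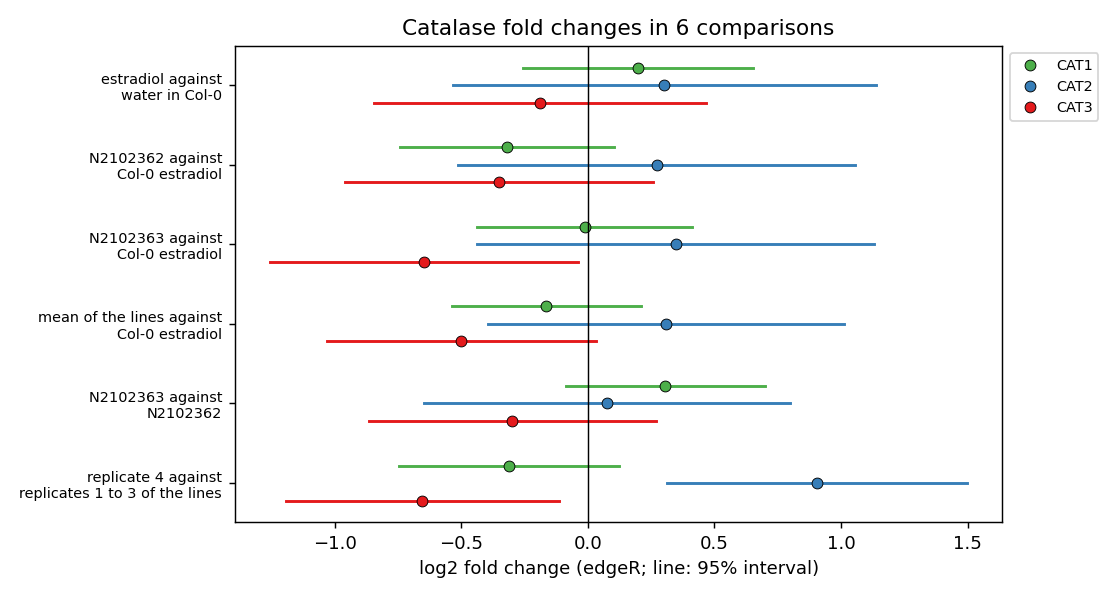
Log2 fold changes of the catalases in 6 comparisons (points, edgeR) with 95% intervals (lines). The intervals of all 3 genes include 0 in the comparisons of groups except for CAT3 in N2102363 (-1.26 to -0.04), and in replicate 4 against replicates 1 to 3 those of CAT2 and CAT3 lie on opposite sides of 0.

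Among the 6 comparisons, the balance of CAT2 to CAT3 differed most between replicate 4 and replicates 1 to 3 of the lines. There were 6.72, 3.35 and 8.71 CAT2 counts per 100 CAT3 counts in Col-0 with water and 8.32, 6.35 and 12.3 in Col-0 with estradiol. In N2102362 there were 10.9, 9.82 and 6.31 in replicates 1 to 3 and 36.1 in replicate 4. In N2102363 there were 14.2, 11.8 and 17.3 in replicates 1 to 3 and 30.0 in replicate 4. The 2 replicate 4 libraries lay above all 12 others. How many other gene pairs did so was not counted. Of single genes, 33.6% did not overlap between replicate 4 and replicates 1 to 3 of the lines. Within the lines, replicate 4 had a ratio 2.94 times that of replicates 1 to 3 (log2 difference 1.56), and a two-sided exact permutation test within lines gave p = 0.0625, the smallest it can give, or 0.386 adjusted over 18 ratio tests.

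Between groups, no catalase ratio passed. In N2102363 the CAT2 to CAT3 ratio was 1.98 times that of Col-0 with estradiol (log2 difference 0.98, two-sided exact permutation p = 0.0857, adjusted p = 0.386, where 0.0286 is the smallest possible), and 3 of 4 libraries lay above all 3 of Col-0. In N2102362 it was 1.44 times (exact p = 0.571, adjusted p = 0.720). Without replicate 4 the log2 differences were 0.71 (exact p = 0.200) and 0.02 (exact p = 1.00). With 3 libraries against 3 the smallest possible p is 0.1, so this test could not pass. Over the 12 libraries without replicate 4, the levels of CAT2 and CAT3 (log2 CPM) had Pearson's r = -0.329 (permutation p = 0.299) and Spearman's rho = -0.259 (permutation p = 0.418). With replicate 4 the values were r = -0.643 (permutation p = 0.0110, adjusted over 3 gene pairs 0.0331) and rho = -0.534 (permutation p = 0.0513, adjusted 0.154). The permutations for these correlations treated all libraries as exchangeable, which libraries of different groups, or of replicate 4 and other numbers, are not. With replicate 4 and with group means removed, r was -0.496. Without the 2 libraries farthest in CAT2, r was -0.433, so the relation rests on few libraries. For CAT1 with CAT2 and with CAT3 the r over 14 libraries was -0.102 and -0.0646 (permutation p = 0.731 and 0.826). Without replicate 4 these became 0.248 and -0.460 (permutation p = 0.438 and 0.132).

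**Figure D4:**
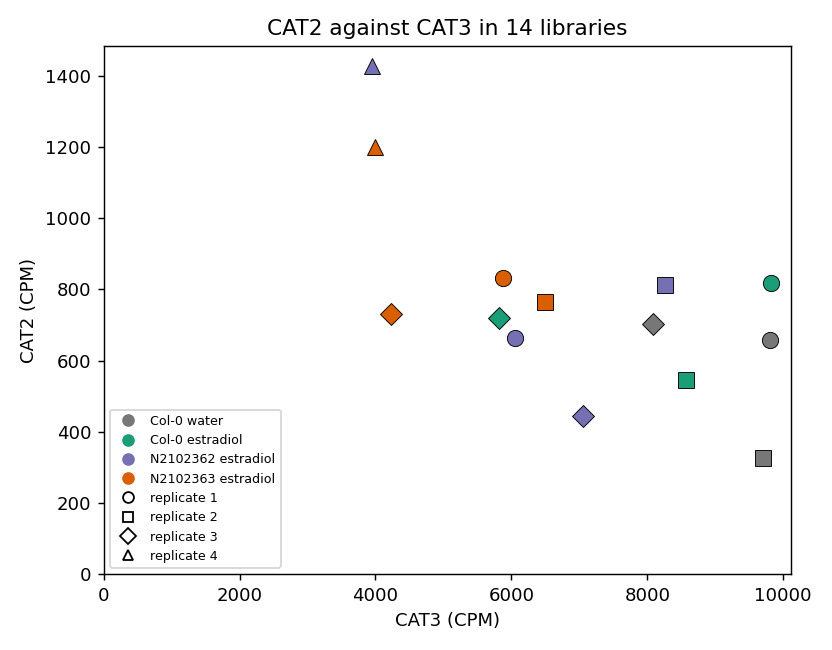
CAT2 against CAT3 in CPM in the 14 libraries, by group and replicate number. The 2 replicate 4 libraries hold the corner with the most CAT2 (1428 and 1199 CPM) and the least CAT3 (3952 and 3998 CPM), apart from the other 12. Of single genes, 33.6% did not overlap between replicate 4 and replicates 1 to 3 of the lines.

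In replicate 4 of the lines, CAT2 was higher and CAT3 lower than in replicates 1 to 3, short of the threshold in the fit of all libraries. CAT2 stood at 1428 and 1199 CPM in replicate 4 against 445 to 831 CPM in replicates 1 to 3, and CAT3 at 3952 and 3998 against 4225 to 8267 CPM. For neither gene did the 2 sets overlap, as for 33.6% of all genes (16.8% in each direction). CAT1, at 93.9 and 97.6 CPM against 77.7 to 141 CPM, did overlap. The log2 fold change was 0.91 ± 0.27 (SE) for CAT2 (adjusted p = 0.0621, edgeR), -0.65 ± 0.25 for CAT3 (adjusted p = 0.117) and -0.31 ± 0.20 for CAT1 (adjusted p = 0.346). The 95% intervals were 0.31 to 1.499, -1.19 to -0.12 and -0.74 to 0.12.

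The call for CAT2 and CAT3 in replicate 4 depended on the fit. DESeq2 called both (CAT2 0.91, adjusted p = 0.0162; CAT3 -0.65, adjusted p = 0.0263). A fit of the 8 line libraries alone with edgeR called CAT2 (0.90, adjusted p = 0.0266), and so did the fit of all libraries without Col-0 water replicate 2 (0.91, adjusted p = 0.0244). The fit of all libraries thus called 0 of 3 catalases where 7.46% of all genes passed, with 2 of 3 at an unadjusted p under 0.05, as were 26.6% of all genes. WRKY75 was also highest in replicate 4 within each line, at 82.1 against 28.2 to 30.7 CPM in N2102362 and at 167 against 76.8 to 146 CPM in N2102363. Its log2 fold change was 1.05 ± 0.32 (adjusted p = 0.0640). Over the 8 line libraries, a relation looked at after the values were seen, log2 WRKY75 had Pearson's r = 0.573 with CAT2 (permutation p = 0.143) and Spearman's rho = 0.571 (permutation p = 0.151). With CAT3 the values were r = -0.673 (permutation p = 0.0738) and rho = -0.571 (permutation p = 0.151), and with CAT1 r = 0.281 (permutation p = 0.497) and rho = 0.0476 (permutation p = 0.935). No relation passed after adjustment over the 3 genes (smallest adjusted p = 0.215, permutation). The permutations treated the 8 line libraries as exchangeable, across lines and replicate 4. Without the 2 libraries farthest in WRKY75, r was 0.151 for CAT2, -0.642 for CAT3 and 0.566 for CAT1, so the value for CAT2 rests on those libraries. With line means removed r was 0.782, -0.719 and -0.390 for CAT2, CAT3 and CAT1, and without replicate 4 it was 0.495, -0.592 and 0.620.

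Genes of photorespiration, the pathway whose peroxide CAT2 removes, were mostly higher in replicate 4 along with CAT2. Of 17 members tested, 3 rose (GOX1, GLDT and HPR1), 1 fell (BASS6) and 13 did not pass, where 3.58% of all genes rose and 3.88% fell, and the median log2 fold change was 0.56, against -0.01 over all genes. GOX1, a glycolate oxidase that makes peroxide in the peroxisome, was at 1214 and 1441 CPM in replicate 4 and at 749 to 984 CPM in replicates 1 to 3 (log2 fold change 0.63 ± 0.17, adjusted p = 0.0441, edgeR). The log2 fold change was 0.87 ± 0.19 (adjusted p = 0.0269) for GLDT, a subunit of glycine decarboxylase, and 0.75 ± 0.20 (adjusted p = 0.0422) for HPR1, the peroxisomal hydroxypyruvate reductase. It was -0.65 ± 0.16 (adjusted p = 0.0373) for BASS6, a glycolate transporter of the chloroplast. GOX2, the close relative of GOX1, had 0.29 ± 0.14 (adjusted p = 0.196), and reads that match both could be counted for either or neither. The leaf mesophyll markers RBCS1A, CA1 and RCA, 3 of 3, also rose in replicate 4 (0.82, 1.42 and 0.77).

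Single markers of other tissues also rose in replicate 4. Of those tested, 1 of 4 epidermis and trichome markers, 1 of 3 root markers and 1 of 2 floral markers rose, and 0 fell. Of all genes, 3.58% rose and 3.88% fell. None passed among 4 guard cell, 3 phloem and 4 dividing cell markers, whose median log2 fold changes were 0.13, 0.07 and 0.54. The summed level of epidermis and trichome markers was 223 and 242 CPM in replicate 4 against 160 to 196 CPM in replicates 1 to 3. That of root markers was 137 and 145 against 99.7 to 126 CPM. Neither sum overlapped, and 16.8% of all single genes tested also lay higher in replicate 4 without overlap. The sums of guard cell markers (4407 and 4916 against 2847 to 4663 CPM), phloem markers (284 and 288 against 259 to 301 CPM) and dividing cell markers (44.0 and 56.5 against 20.1 to 50.7 CPM) overlapped. The part of tissue makeup in the catalase levels was not tested.

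Clock genes differed in the same libraries, which bears on CAT2 and CAT3 as genes of opposite daily phase. Of 8 morning clock genes, 4 rose in replicate 4 (LHY, CCA1, RVE1 and LNK2) and 0 fell, where 3.58% of all genes rose. Of 9 evening clock genes, 7 fell (TOC1, GI, PRR5, PRR3, ELF3, ELF4 and LUX) and 0 rose, where 3.88% of all genes fell. CCA1, a morning transcription factor of the central oscillator, was at 69.1 and 84.5 CPM in replicate 4 against 23.4 to 41.5 CPM in replicates 1 to 3 (log2 fold change 1.29 ± 0.25, adjusted p = 0.0226, edgeR). GI, an evening protein of the oscillator, was at 59.0 and 67.8 CPM against 115 to 128 CPM (-0.95 ± 0.13, adjusted p = 0.00848). TOC1, the evening repressor of CCA1, had -0.98 ± 0.21 (adjusted p = 0.0259). The list medians were 0.80 and -0.98. The hour of harvest is not given in the sources used here, and the part of daily phase in the catalase levels was not tested.

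The counts of other peroxisomal genes that passed in replicate 4 were of the order of the share of all genes (3.58% higher, 3.88% lower). Of 15 tested genes for other peroxisomal oxidases and antioxidant enzymes, 0 rose and 1 fell, HAOX1, a hydroxyacid oxidase (-0.49 ± 0.12, adjusted p = 0.0380), with a median of 0.05. A further 2 of the 17 listed, PAO2 and PAO3, are listed at 0 counts. Of 14 genes of peroxisome import and biogenesis, 0 rose and 1 fell, PEX11C, a factor of peroxisome division (-0.55 ± 0.13, adjusted p = 0.0314), with a median of -0.08. Of 13 tested genes known to respond to hydrogen peroxide, 0 rose and 1 fell, FOX1, a FAD-linked oxidoreductase (-1.64 ± 0.29, adjusted p = 0.0162), and the median was -0.02.

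The known partners and regulators of catalase gave 0 of 6 calls in replicate 4, and 1 in the fit of the line libraries alone. NCA1, a chaperone that catalase needs for activity, had a log2 fold change of 0.08 ± 0.09, LSD1, a zinc finger protein that binds catalase, 0.14 ± 0.15, and GBF1, a bZIP factor that represses CAT2, 0.15 ± 0.18. WRKY53 was at 27.3 and 43.1 CPM in replicate 4 against 62.0 to 95.4 CPM in replicates 1 to 3 (-1.09 ± 0.57, adjusted p = 0.245, edgeR). These counts moved with single libraries: of all genes, 0 were called without replicate 4 of either line, which leaves 1 such library, 2394 without N2102363 replicate 3, 207 without N2102363 replicate 2, and 497 to 677 without replicate 1, 2 or 3 of N2102362 or replicate 1 of N2102363. Photorespiration had 1 call without N2102362 replicate 2 and 0 without replicates 1 or 3 of that line or replicates 1 or 2 of N2102363. Without N2102363 replicate 2 the morning clock had 1 call and the evening clock 3, and without N2102362 replicate 3 the morning clock had 2. Peroxisome import and the other peroxisomal enzymes had 0 calls without replicate 1, 2 or 3 of N2102362 or replicate 1 or 2 of N2102363.

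**Figure D5:**
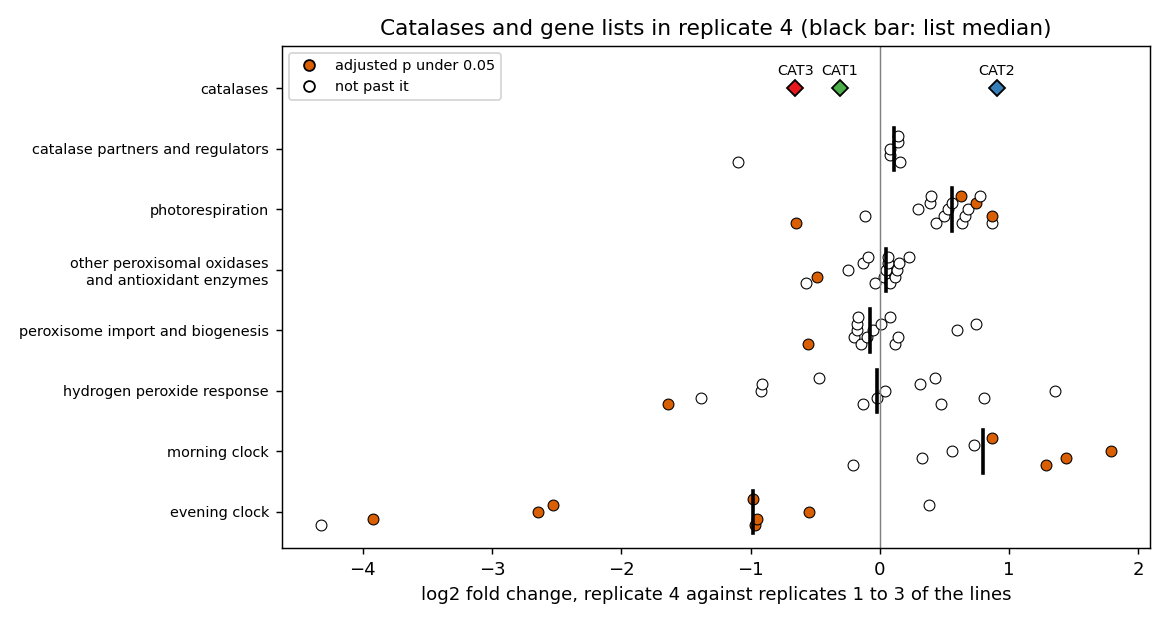
Log2 fold change in replicate 4 against replicates 1 to 3 of the lines for the catalases (diamonds) and for genes of 7 lists (circles, filled where the adjusted p was under 0.05), with the list median as a black bar. CAT2 lies on the positive side, as do the medians of photorespiration (0.56) and morning clock genes (0.80). CAT3 and CAT1 lie on the negative side, as does the median of evening clock genes (-0.98). The part of daily phase was not tested.

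Against Col-0 with estradiol, no list had a called member in either line or in their mean, nor did estradiol against water in Col-0. Of all genes, 0.0305% (N2102362), 0.0254% (N2102363), 0.0356% (mean of the lines) and 0% (estradiol) passed there, so lists of this size would rarely hold a call. In the mean of the lines, photorespiration had a median log2 fold change of 0.15, with 13 of 17 members above 0, and without replicate 4 the median was -0.01, with 6 of 17 above 0. Genes known to respond to hydrogen peroxide had a median of -0.19 with replicate 4 and -0.15 without. The largest value in size among them was that of NAC032, a stress-induced NAC factor, at -0.94 ± 0.35 (adjusted p = 0.523, edgeR), or -0.77 ± 0.32 without replicate 4. WRKY53 stood at -0.0047 ± 0.48 and NCA1 at -0.10 ± 0.08, or 0.20 ± 0.48 and -0.12 ± 0.08 without it. Morning clock genes had a median of 0.61 with replicate 4 and 0.26 without, and evening clock genes -0.42 and -0.21. The clock lists thus leaned as in replicate 4 in both fits. These medians take Col-0 with estradiol as the reference. Estradiol against water in Col-0 gave medians of 0.22 for evening clock, 0.08 for morning clock and 0.13 for peroxide response genes. For evening clock and peroxide response genes that sign was opposite to that of the lines.

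Genes whose log2 CPM followed each catalase most closely over the 14 libraries were sought among 12337 genes with a mean of at least 10 CPM. These libraries share the replicate 4 contrast and the group differences above. For CAT2 the closest were AT3G57020 (Pearson's r = 0.977), FADA (AT4G27030, a fatty acid desaturase of the chloroplast, 0.968) and GLDP2 (a glycine decarboxylase subunit, 0.967). Without replicate 4 these r were 0.959, 0.935 and 0.938. For CAT3 they were AT2G04400 (0.985), TSA1 (a tryptophan synthase subunit, 0.979) and GSTF9 (a glutathione transferase, 0.978). For CAT1 they were AT3G10020 (0.971), BGAL10 (a galactosidase, 0.947) and AT5G06570 (0.938). CAT2, CAT3 and CAT1 had different nearest genes, which their low or negative r with each other already fixes.

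By the same measure, photorespiration genes mostly had a positive r with CAT2 and a negative r with CAT3. Of 16 photorespiration genes, 14 had r above 0.5 with CAT2 (median 0.826, and 0.691 without replicate 4), where 20.9% of all genes did. GOX1 had 0.896 with CAT2 and HPR1 0.941, but BASS6 had -0.682 and PMDH1, also on the list, -0.591. With CAT3 the median of the same 16 genes was -0.575 (-0.243 without replicate 4), where that of all genes was 0.0653. BASS6 had 0.957 and PMDH1 0.891 with CAT3. CAT1 had a median of -0.0294 with them, or 0.354 without replicate 4. The signs with CAT2 and CAT3 were not particular to photorespiration. Leaf mesophyll, root and dividing cell markers had medians of 0.854, 0.746 and 0.664 with CAT2, and of -0.807, -0.724 and -0.904 with CAT3. Guard cell, epidermis and phloem markers had 0.419, 0.486 and 0.184 with CAT2, and -0.515, -0.328 and -0.0476 with CAT3. Without replicate 4, epidermis markers had medians of -0.0448 with CAT2 and 0.0504 with CAT3, and phloem markers 0.0177 and 0.201. The medians of leaf mesophyll, root, dividing cell and guard cell markers kept their signs without it. With CAT2 the morning clock genes had a median r of 0.785 (0.666 without replicate 4) and the evening clock genes -0.584 (-0.0581 without). With CAT3 the 2 medians were -0.424 and 0.353 with replicate 4, and -0.183 and -0.359 without, so the sign for evening genes turned. Of the other peroxisomal oxidases and antioxidant enzymes 3 of 13 had r above 0.5 with CAT3, and of peroxisome import genes 2 of 14, where 28.5% of all genes did. The extremes were UOX, urate oxidase (0.878), and CSD3, a superoxide dismutase (-0.745), in the former list, and PEX11C (0.914) and LON2, a peroxisomal protease (-0.758), in the latter.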

How the data were processed

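The authors deposited raw read counts for each gene, from libraries made with a TruSeq kit that keeps no strand information. Per the submitters' processing notes, FastQC, TopHat2, SAMtools and HTSeq were run with the TAIR10 build. Tool versions, counting mode and the handling of reads with several matches are not given in the sources used here. Per the labels, the design names 4 replicates of each line, the extraction text fewer. The deposited names of the line files marked them as combined.

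Genes with a count of at least 10, scaled to library size, in enough libraries were kept (edgeR 4.0.16 in R 4.3.3, filterByExpr), leaving 19666 of 33602. Counts were scaled by TMM and tested with the robust quasi-likelihood F test over 4 groups (10 residual degrees of freedom). For replicate 4, a replicate 4 term was added to the groups (9). Adjusted p-values are Benjamini-Hochberg over all genes tested, and a call means an adjusted p under 0.05. Standard errors and intervals follow from the F statistic. CPM divides by the scaled library size, where 1 count is about 0.0478 CPM, and RPKM also by the length of the first RefSeq transcript. The gene models of the files differ from RefSeq in the start or end of each catalase. CAT1 ends at 7149977 in the files and at 7150180 in RefSeq. RPKM values between catalases are thus approximate. Ratios were tested by exact permutation. On simulated data for the mean of the lines (19546 and 19554 genes in 2 rounds) the test recovered 88 and 91 of 100 genes changed 2-fold and 99 of 100 changed 4-fold. For replicate 4 (19544 and 19563 genes) it recovered 73 and 75, and 97 and 99. Changes were given only to genes above a low mean level, and counts were drawn independently. The simulated libraries thus lacked the likeness of equal replicate numbers and the real differences of replicate 4. These rates hold for that setting and do not give the chance of calling a change in a catalase. DESeq2 1.42.0 and other alternatives are in the closing section.

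The members, gene lists and alternatives were chosen with earlier results of these data known. The text names the catalases and WRKY75, up to 4 called members of each list, catalase partners, GOX1, GOX2, CCA1 and TOC1, and the 3 genes closest to each catalase. Other names were chosen after their values were seen. The match of gene models to RefSeq (TAIR10.1) was checked: all 27998 nuclear genes found there overlapped on the same strand.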

Additional observations from a re-analysis of the deposited data

Results flagged for a closer look

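N2102362 replicate 4 had 36.1 CAT2 counts per 100 CAT3 counts, far above the other 3 libraries of that line (6.31 to 10.9). The gap to the next library filled 0.845 of the range of the group. N2102363 replicate 4 had 8.14 CAT1 counts per 100 CAT2 counts, far below the other 3 libraries of its line (17.0 to 18.01), with a gap of 0.897 of the range. Both were flagged because a single sample lay far from the rest of its group. Chance flags about 1 in 20 groups, and 12 sets of 4 libraries were examined.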

How the results depend on the processing

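None of the 3 catalases was called in a comparison of groups under any alternative run. In replicate 4 against replicates 1 to 3, CAT2 was called with DESeq2 (log2 fold change 0.914, adjusted p = 0.0162), in a fit of the line libraries alone (0.904) and without Col-0 water replicate 2. Leaving out 1 library at a time its value ran from 0.628 to 1.16. CAT3 was called there with DESeq2 (-0.645). Of 417 alternative fold changes of the catalases, 395 kept direction and call, 18 reversed and 4 passed the threshold.

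CAT1 in N2102363, close to 0, turned positive with upper quartile scaling (0.00698), with replicates 1 to 3 only (0.0897), with all 6 Col-0 libraries as reference (0.0878) and with the water libraries as reference (0.187; 0.276 when replicate 4 was also left out, an alternative chosen after seeing the data), and ran from -0.201 to 0.166 leaving out 1 library. In the mean of the lines CAT1 was 0.0339 against the water libraries (0.0913 without replicate 4 as well) and ran from -0.354 to 0.0140. CAT2 in N2102362 was -0.115 with replicates 1 to 3 only and ran from -0.115 to 0.478. CAT2 between the lines ran from -0.131 to 0.460. The CAT1 to CAT3 ratio in N2102362 was -0.119 with replicates 1 to 3 only and ran from -0.220 to 0.449. That ratio ran from -0.00595 to 0.662 for estradiol in Col-0 and from -0.0261 to 0.714 in replicate 4. The CAT1 to CAT2 ratio ran from -0.192 to 0.431 between the lines and from -0.454 to 0.166 for estradiol in Col-0. The cause was not tested.

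The count of genes called was 10, 37, 27, 4 and 2604 with DESeq2 (N2102362, N2102363, mean of the lines, between the lines, replicate 4). It was 2, 2 and 2457 with only the compared groups (N2102362, N2102363, replicate 4), 55 and 127 with all Col-0 libraries as reference, and 27 and 11 with the water libraries (N2102363, mean of the lines). Leaving out 1 library gave 5 to 8 in N2102363, 1 to 2 between the lines and 0 to 2394 in replicate 4. Called photorespiration members in replicate 4 were 9 with DESeq2 or the line libraries alone, and the line libraries alone gave 3 for peroxisome import, 2 for peroxide response and 1 for catalase partners.

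Libraries of the same replicate number tended to deviate alike from their group means. Of 19 such pairs across groups, 16 had a correlation of deviations over 0.1 (median 0.165, from -0.186 to 0.718). Of 54 pairs with different numbers, 16 did (median -0.131). Of 14 libraries, 11 correlated best with one of the same number. The main tests between groups did not use the numbers, and a replicate block was run as an alternative. With a replicate block, CAT2 in N2102362 was -0.0195, CAT1 in N2102363 0.0753, the CAT1 to CAT3 ratio in N2102362 -0.119 over pairs, and 2 genes were called between the lines. Col-0 has no replicate 4, so against Col-0 the block took up what both replicate 4 libraries shared. Ratio pairs with Col-0 left replicate 4 out. Pairing by number and the loss of replicate 4 thus cannot be told apart in these shifts. No catalase was called with the block.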
